A study of Homo sapiens with 24 samples.

Results

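The nuclear genes of oxidative phosphorylation encode the subunits of the respiratory chain and of the ATP synthase that are made in the cytosol and imported into mitochondria. They were taken from the count table by name: protein-coding rows whose symbol starts with NDUFA, NDUFB, NDUFC, NDUFS, NDUFV, UQCR, ATP5 or COX followed by a digit from 4 to 8, together with SDHA, SDHB, SDHC, SDHD, CYC1 and CYCS. The rule gave 103 of the 48162 genes listed. It used names only, and it also takes in the NDUFAF assembly factors and a few genes, such as ATP5SL, that share a prefix without being a subunit. RNA was sequenced from PPC1 cells, a human prostate cancer line, in 4 conditions with 6 libraries each. Libraries of the same replicate number were taken as harvested in parallel. UT were untreated parental cells and UT_LCL were parental cells given 5 µM LCL521, an inhibitor of acid ceramidase, for 5 h. PGCC (polyploid giant cancer cells) came from plates that received 8 Gy on day 2 and were passed over a 20 micron filter at harvest on day 5, and PGCC_LCL were such cells given the same LCL521 exposure. PGCC therefore differed from parental cells by irradiation and by filtration, which cannot be told apart here, and all libraries came from 1 cell line.

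Electrons enter the chain through complex I, which oxidises NADH, or through complex II, which is also succinate dehydrogenase of the tricarboxylic acid cycle. They pass by ubiquinone to complex III, by cytochrome c to complex IV and so to oxygen, and complex V uses the resulting proton gradient to make ATP. Complexes I, III, IV and V combine nuclear-encoded subunits with subunits encoded by mitochondrial DNA, while complex II is wholly nuclear. Many of the nuclear promoters carry sites for NRF1, for GABPA (an ETS factor) and for YY1.

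Promoter sequences are shown because shared sites are the feature that these genes are best known to have in common and that the naming rule did not use. RefSeq promoter windows (GRCh38.p14, 250 bases before to 50 after each start) were matched for 76 of the 103 genes, through current symbols. The letters CGCATGCG, the core of the NRF1 motif, occurred on either strand in 12 of the 76 (15.8%), against 3.32% of the 15126 protein-coding genes of the table with a window and 2.02% of all 35116 windows. CCGGAAG, an ETS motif, occurred in 21 (27.6%), against 16.8% of protein-coding genes and 10.3% of all windows. AAGATGG, the YY1 core, occurred in 18 (23.7%), against 7.97% of protein-coding genes and 5.84% of all windows. Counted by window, as all windows were, the motifs occurred in 13.0%, 23.9% and 20.7% of the 92 member windows. No motif overlapped another in the sequences printed. These matches are descriptions of letters and not of binding. The coordinates of these sequences are on GRCh38.p14, whereas gene coordinates elsewhere are those of the count table, which the submitters' notes place on hg19.

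Stretches of 100 bases upstream of the start, outside annotated UTRs and written 5′ to 3′ on the gene's strand with the motif in capitals, are given for 3 members that were lower in PGCC and for NDUFAF1, which was higher and had none of the 3 motifs in its window. Only called members were picked for display here and below. Of members not called, 15.2% had the NRF1 core, 37.0% the ETS motif and 17.4% the YY1 core. Of lower members, 23.8%, 14.3% and 42.9% had them. NDUFB4 lies at chr3:120596132-120596231 (+ strand) with an NRF1 core, COX5B at chr2:97645940-97646039 (+ strand) and NDUFAF4 at chr6:96897985-96898084 (- strand) with ETS motifs, and NDUFAF1 at chr15:41402520-41402619 (- strand).
NDUFB4: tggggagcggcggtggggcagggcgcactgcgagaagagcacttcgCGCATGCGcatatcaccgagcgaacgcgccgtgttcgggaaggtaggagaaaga
COX5B: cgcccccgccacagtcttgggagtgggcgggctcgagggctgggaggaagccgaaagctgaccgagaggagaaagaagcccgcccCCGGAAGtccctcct
NDUFAF4: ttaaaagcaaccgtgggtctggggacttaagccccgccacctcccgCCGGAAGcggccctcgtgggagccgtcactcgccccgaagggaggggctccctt
NDUFAF1: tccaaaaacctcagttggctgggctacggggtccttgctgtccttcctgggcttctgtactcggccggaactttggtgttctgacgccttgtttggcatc

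Short sites, with 10 bases either side of the motif in capitals, are shown for a further 6 members that were lower in PGCC. The NRF1 core lay 45, 74 and 41 bases before the start of NDUFS6 (chr5:1801352-1801379, + strand), NDUFS7 (chr19:1383823-1383850, + strand) and ATP5G2 (chr12:53676107-53676134, - strand). The YY1 core began 8 bases before the start of COX7C (chr5:86617923-86617949, + strand), and at base 22 of NDUFS4 (chr5:53560650-53560676, + strand) and base 9 of UQCRC2 (chr16:21953359-21953385, + strand).
NDUFS6: agaagccgtgCGCATGCGttagcgctaa
NDUFS7: ttccggtttcCGCATGCGctccgagccg
ATP5G2: gcccgggtcaCGCATGCGctgagccttc
COX7C: gccccatttcCCATCTTtcttttcagt
NDUFS4: tgcctgcagcAAGATGGcggcggtgtc
UQCRC2: gcctccgccaCCATCTTgctttccttt

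Between 14835246 and 19906601 reads were counted on genes per library. Levels are given as CPM, the counts of a gene divided by the TMM-scaled library size and brought to a common scale of 1e+06 counts. The epithelial keratins KRT8, KRT18 and KRT19 were expressed in every library, whereas EPCAM reached at most 0.851 CPM and CDH1 6.49 CPM. The summed level of all 5 epithelial markers ran from 782 to 1032 CPM in UT, 791 to 1066 in UT_LCL, 966 to 1478 in PGCC and 957 to 1342 in PGCC_LCL. Markers of leukocytes summed to at most 4.02 CPM, almost all of it PTPRC (0.406 to 2.74 CPM in UT and 2.34 to 4.02 in PGCC), with CD3E and CD68 at or near 0. Their part in the results was not tested. Replicates 4 and 5 stood apart in several members in all 4 conditions, and the values without them are given where they matter.

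Of the 103 genes, 86 passed the filter on low counts for the comparison of PGCC with parental cells. In parental cells the highest level per kilobase of gene length belonged to ATP5B, the catalytic beta subunit of ATP synthase, at 801 ± 47.5 CPM per kilobase (SD, n = 6). UQCRH, the hinge protein of complex III, followed at 424 ± 18.2, and NDUFS5, an accessory subunit of complex I, at 381 ± 49.1 CPM per kilobase. CYC1 and COX7C, at 348 ± 28.5 and 346 ± 25.0 CPM per kilobase, did not differ beyond their spread. The most abundant of the other groups were NDUFV1 of the complex I core (123 ± 12 CPM per kilobase), SDHB of complex II (108 ± 7.74), CYCS (102 ± 20.8) and, among assembly factors, NDUFAF2 (53.6 ± 3.40).

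The 17 genes that did not pass comprised the tissue-restricted isoforms COX4I2, COX6A2, COX6B2, COX7A1, COX7B2 and COX8C, together with ATP5L2, ATP5EP2, COX6A1P2, the readthrough entries ATP5J2-PTCD1 and NDUFC2-KCTD14, both rows of NDUFA7 and of UQCR11 and the second rows of NDUFB8 and SDHD. COX4I2, COX6A2 and COX7B2 had no more than 2 reads in any library. NDUFA7, NDUFB8 and UQCR11, which encode subunits of complexes I and III, were nearly absent: their most counted rows reached 19, 18 and 16 reads in any library. Each of these genes is listed in 2 rows that overlap on the same strand. NDUFA13 (at most 38 reads), NDUFV2 (at most 39) and ATP5I (at most 54) were low as well and share their locus with YJEFN3, RP11-21J18.1 and, on the opposite strand, MYL5. NDUFV2P1, a pseudogene of NDUFV2, had 77 to 188 reads per library, more than NDUFV2 itself with 5 to 39. The values of these genes are uncertain, since reads that overlap more than 1 gene may not have been counted; that was not tested. In all, 21 of the 86 tested members (24.4%) overlap another gene on the same strand, and 3 of the 31 that were lower in PGCC do so (9.68%).

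More of the nuclear oxidative phosphorylation genes were lower than higher in PGCC compared with parental cells. At an adjusted p under 0.05 in edgeR's quasi-likelihood test, 31 of the 86 members were lower (36.0%, against 24.3% of all 13812 genes tested) and 2, SDHA and NDUFAF1, were higher (2.33%, against 23.1% of all genes). The other 53 did not pass. The median log2 fold change of the members was -0.17, against -0.03 over all genes tested, and 72 of the 86 lay below 0 (83.7%, against 52.2%). The falls were small: 27 of the 31 were less than 1.5-fold, 3 were between 1.5-fold and 2-fold and only NDUFA4L2 exceeded 2-fold. Every PGCC library lay below every parental library for 19 members (22.1%, against 12.9% of all genes) and above them for 1, SDHA (1.16%, against 13.9%). With the replicate number fitted as a block, 39 members were lower and 2 higher, where 28.3% of all genes were lower and 27.9% higher. When libraries were scaled by their totals in place of TMM, 20 members were lower and 4 higher, and the median of all genes moved from -0.03 to 0.07. Fewer transcripts per cell and a lower share of the RNA cannot be told apart in bulk libraries scaled to a common size.

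**Figure D1:**
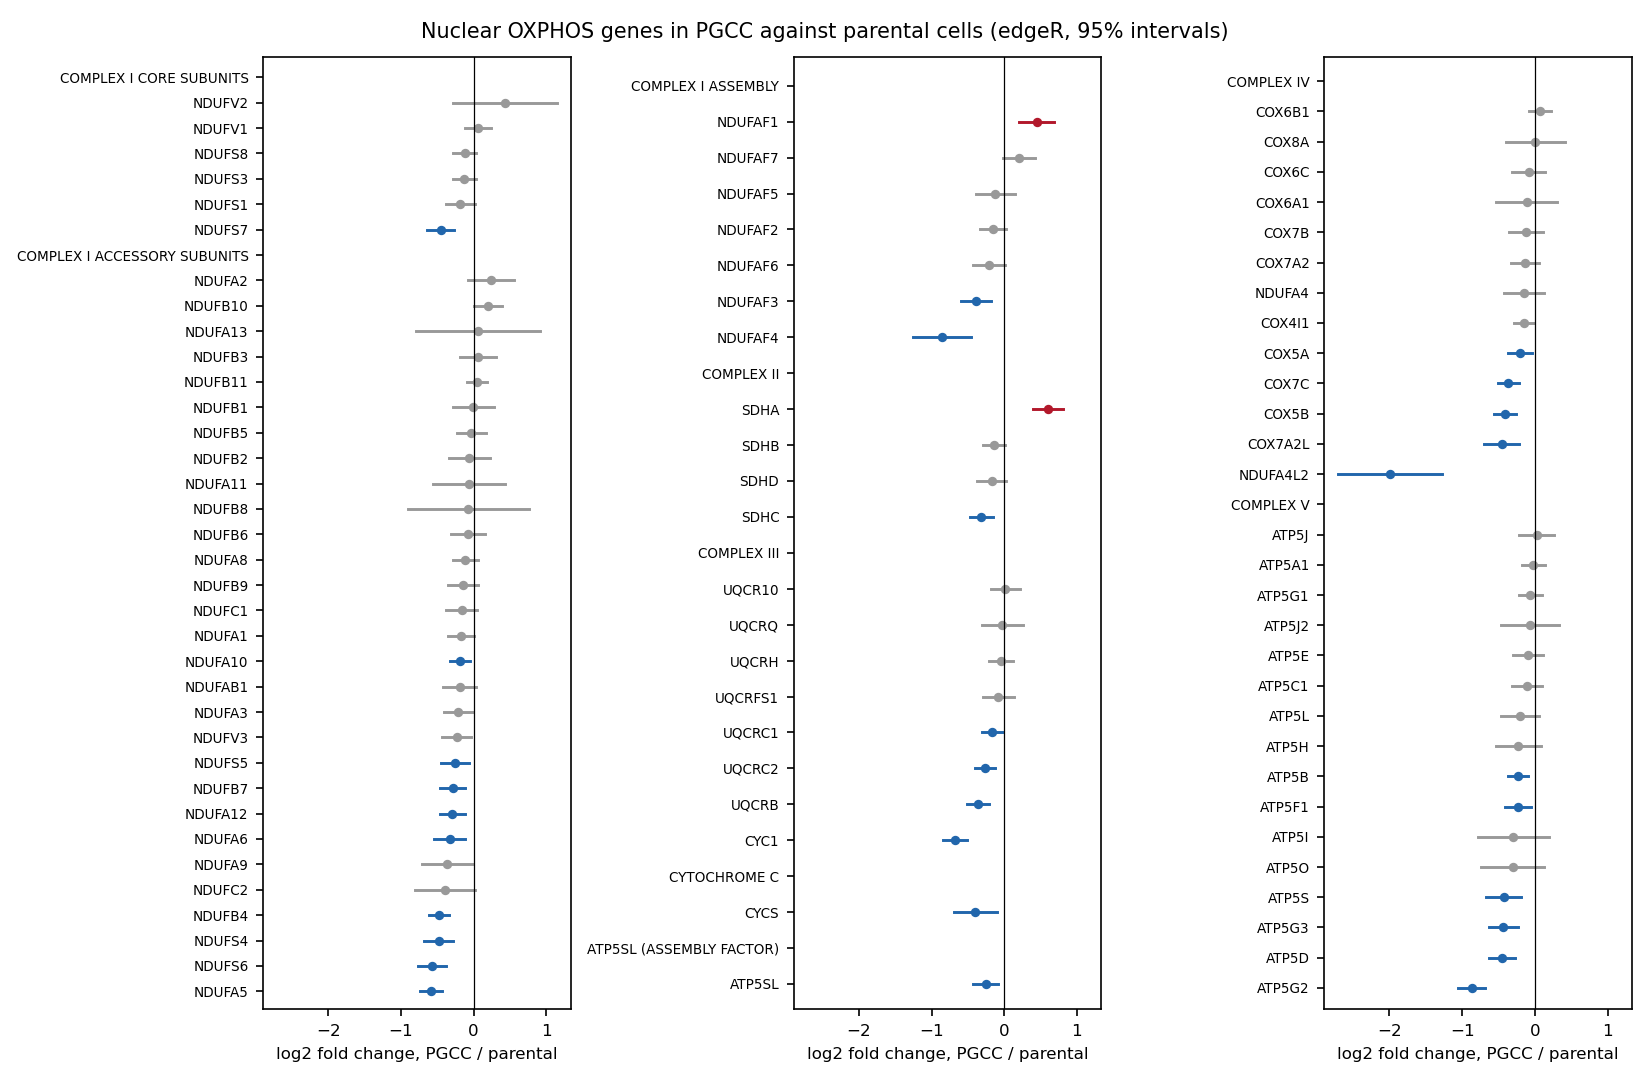
Log2 fold change of 85 of the 86 tested members in PGCC against parental cells (points) with 95% intervals (lines), grouped by complex. Blue marks 30 members that were lower and red the 2 that were higher at an adjusted p under 0.05, and grey the 53 that did not pass.

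As a share of all counts, the members made up 1.20% ± 0.0742 in UT, 1.11% ± 0.0467 in PGCC, 1.19% ± 0.112 in UT_LCL and 1.06% ± 0.0542 in PGCC_LCL (SD, n = 6 each). The ranges overlapped, from 1.08 to 1.30% in UT and from 1.03 to 1.16% in PGCC. Summed over complex III, CPM went from 1803 ± 106 in UT to 1436 ± 72.5 in PGCC, and these ranges, 1601 to 1891 and 1319 to 1512 CPM, did not overlap. Much of that fall lay in CYC1, with 535 to 684 CPM in UT and 358 to 444 in PGCC. UQCRB, UQCRC1 and UQCRC2 were lower as well, whereas UQCRH, UQCRQ, UQCR10 and UQCRFS1 did not pass. Complex V went from 3505 ± 230 to 2988 ± 140 CPM and complex IV from 2693 ± 172 to 2317 ± 169 CPM. Both overlapped: complex V ran from 3079 to 3770 CPM in UT and from 2721 to 3098 in PGCC. Complex IV ran from 2414 to 2866 CPM in UT and from 2147 to 2613 in PGCC. The mean of complex II was higher in PGCC, with 598 ± 38.9 CPM in UT and 683 ± 61.3 in PGCC, but the ranges overlapped (527 to 639 and 597 to 748 CPM). Within that sum SDHA went from a mean of 261 to 395 CPM, and SDHB, SDHC and SDHD had lower means in PGCC.

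**Figure D2:**
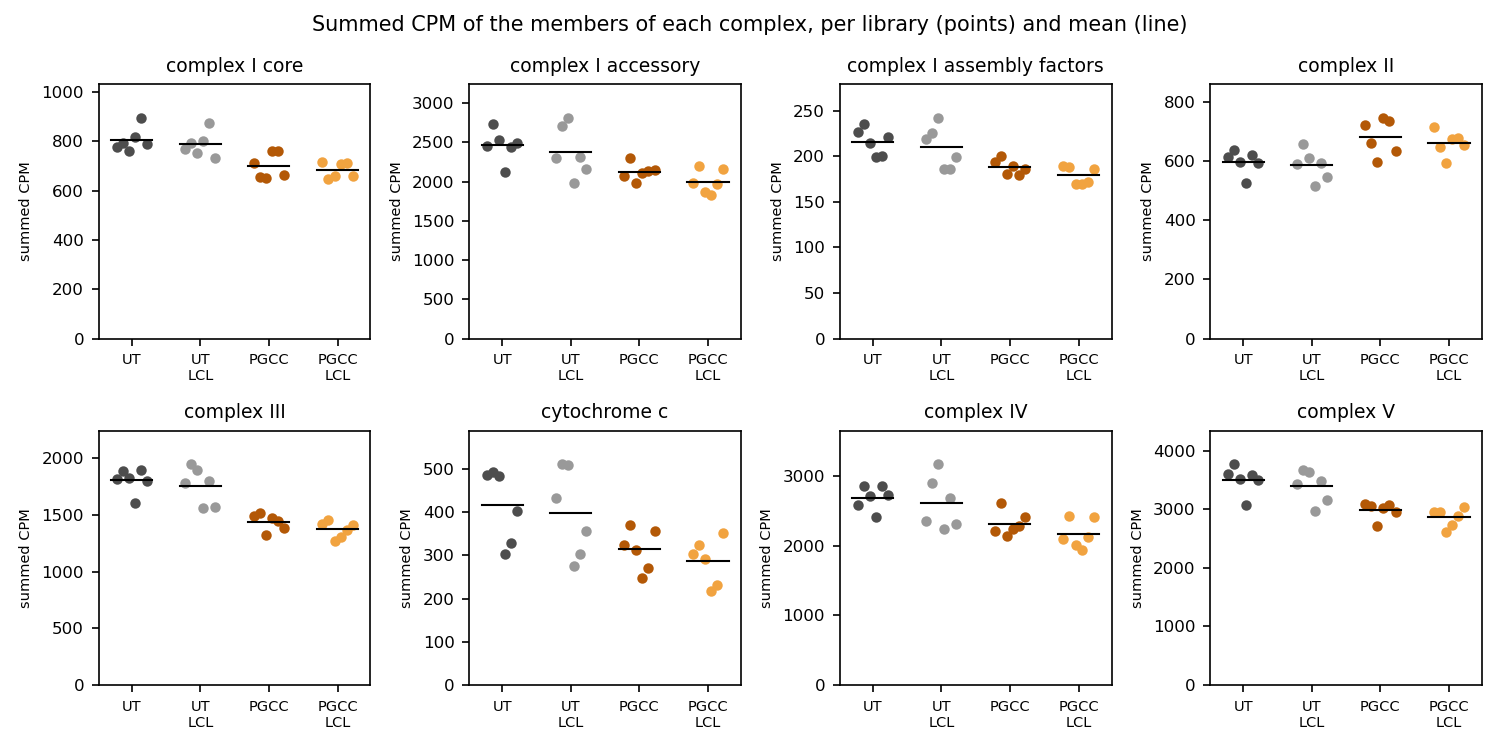
Summed CPM of the members of each complex in each library (points, 6 per condition) with the condition mean (line). Means in PGCC were below UT for every group except complex II (598 and 683 CPM), whose libraries overlapped and whose higher mean came with SDHA (261 and 395 CPM).

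In complex I, 11 of the 36 tested subunits were lower in PGCC (30.6%, against 24.3% of all genes) and none higher. With the replicate block 17 were lower (47.2%, against 28.3% of all genes). The 6 that passed with the block alone were NDUFS1, NDUFA1, NDUFA9, NDUFAB1, NDUFC2 and NDUFV3, at adjusted p from 0.0196 to 0.0459. Among the 7 core subunits, which carry the redox centres, 2 were lower (28.6%, near the 24.3% of all genes). NDUFS7, which holds the iron-sulfur cluster next to the ubiquinone site, had 32.7, 36.7 and 41.9 CPM (lowest, median and highest of 6) in UT, 33.4, 36.5 and 39.6 in UT_LCL, 24.8, 26.4 and 28.2 in PGCC and 25.1, 25.6 and 27.6 in PGCC_LCL. All parental libraries were above all PGCC libraries, and the log2 fold change of PGCC against UT was -0.45 ± 0.08 (SE; edgeR adjusted p = 0.000572). NDUFV1, which binds NADH, stood at 0.06 ± 0.08 on the log2 scale (95% interval -0.12 to 0.24), and NDUFS1, NDUFS3 and NDUFS8 lay between -0.18 and -0.12 without passing, apart from NDUFS1 with the block (edgeR adjusted p = 0.0426).

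Of the 29 accessory subunits tested, 9 were lower (31.0%, against 24.3% of all genes). The largest fall was in NDUFA5, a subunit of the arm that protrudes into the matrix, with 81.8, 86.5 and 90.7 CPM in UT and 53.3, 57.6 and 62.3 in PGCC. NDUFS6, a zinc-binding subunit added late in assembly, had 137, 179 and 210 CPM in UT and 110, 119 and 122 in PGCC. NDUFS4, another late subunit, had 36.7, 40.7 and 45.8 CPM in UT and 26.7, 28.6 and 34.7 in PGCC. The groups did not overlap for any of these 3 genes. Their log2 fold changes were -0.58 ± 0.07, -0.57 ± 0.09 and -0.48 ± 0.09, with edgeR adjusted p of 1.24e-05, 0.000136 and 0.000709. NDUFB4, a membrane-arm subunit whose NRF1 core is printed above, fell by 0.47 on the log2 scale (SE 0.06, edgeR adjusted p = 3.47e-05), from 179 ± 5.85 to 128 ± 7.76 CPM (SD, n = 6). NDUFA6, NDUFA12, NDUFB7, NDUFS5 and NDUFA10 were lower by 0.18 to 0.33 on the log2 scale. NDUFS5 did not pass, with adjusted p between 0.0659 and 0.0967, when any of replicates 1, 2, 3, 5 or 6 was left out. At the other end, NDUFB10 and NDUFA2 stood at 0.20 ± 0.09 and 0.24 ± 0.15 and did not pass.

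Assembly factors of complex I, which build the complex and leave it, went both ways. NDUFAF4 had 31.5, 52.2 and 56.4 CPM in UT and 18.4, 27.1 and 32.1 in PGCC, and its log2 fold change was -0.86 ± 0.19 (edgeR adjusted p = 0.00175). Its libraries fell into a pattern that the conditions do not set: replicates 4 and 5 were the lowest of every condition, at 34.5 and 31.5 CPM in UT and 18.6 and 18.4 in PGCC. Within each of the 6 same-numbered pairs PGCC were below UT, and without replicates 4 and 5 the log2 fold change was -0.86 (adjusted p = 6.46e-06). NDUFAF3, which works with NDUFAF4, was lower by a smaller amount, -0.39 ± 0.10 (edgeR adjusted p = 0.00477), with 30.9 to 40.7 CPM in UT and 23.0 to 30.9 in PGCC. NDUFAF1, part of the module that assembles the membrane arm, had 22.1, 26.7 and 32.8 CPM in UT and 29.3, 36.3 and 43.6 in PGCC. These ranges overlapped, but PGCC were higher in all 6 pairs, and the log2 fold change was 0.45 ± 0.11 (edgeR adjusted p = 0.00457). NDUFAF2, NDUFAF5, NDUFAF6 and NDUFAF7 did not pass, although NDUFAF6, at -0.20 ± 0.10, had an adjusted p of 0.0438 in edgeR with the replicate block. ATP5SL, despite its name an assembly factor of complex I, was lower, at -0.26 ± 0.08 (edgeR adjusted p = 0.0200).

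**Figure D3:**
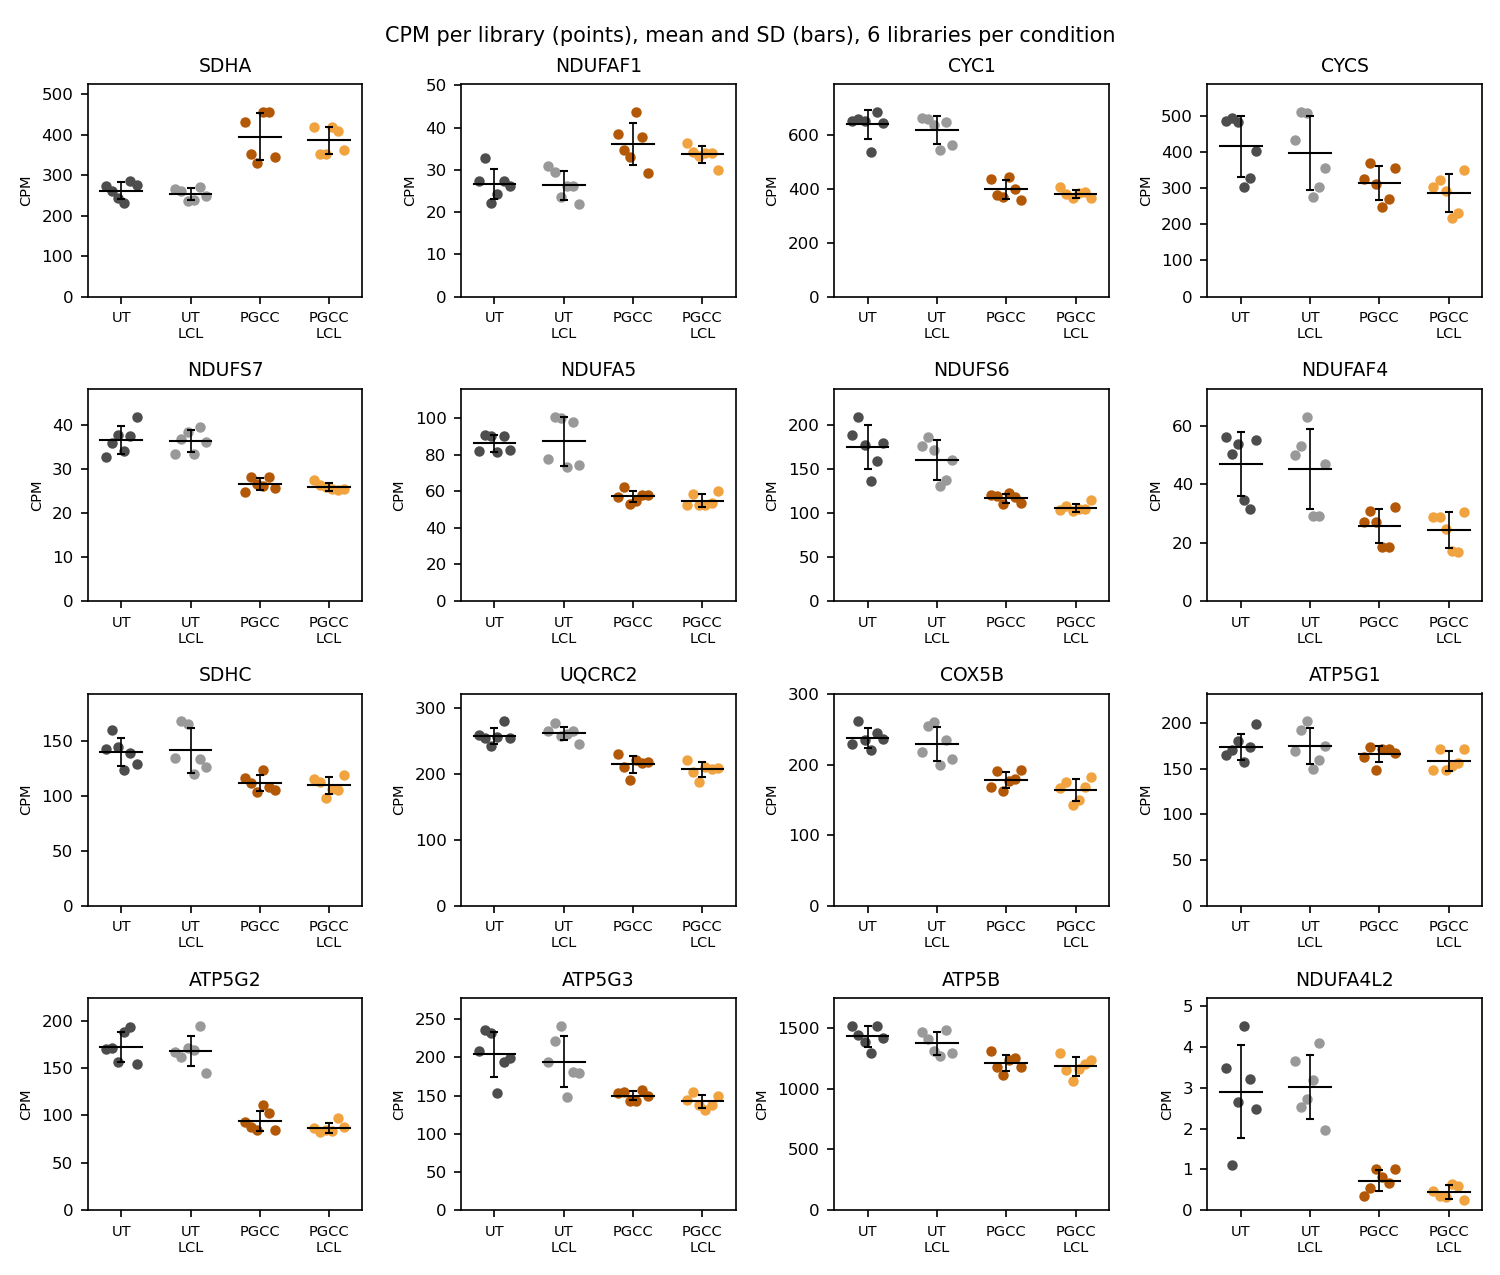
CPM of 16 members in each library (points, 6 per condition), with the mean (long line) and SD (bar); each panel starts at 0. SDHA and NDUFAF1 were higher in PGCC, ATP5G1 did not pass the test, and the other 13 were lower.

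In complex II, 1 of 4 tested subunits was higher and 1 lower (25% each, near the 23.1% and 24.3% of all genes). SDHA, the flavoprotein that oxidises succinate, had 230, 266 and 285 CPM in UT, 235, 254 and 270 in UT_LCL, 329, 392 and 455 in PGCC and 351, 386 and 420 in PGCC_LCL. Every PGCC library was above every parental library, and the log2 fold change was 0.60 ± 0.10 (95% interval 0.40 to 0.81; edgeR adjusted p = 0.000151). SDHC, a membrane anchor of the same complex, moved the other way, from 124, 141 and 160 CPM in UT to 104, 110 and 123 in PGCC, with a log2 fold change of -0.32 ± 0.07 (edgeR adjusted p = 0.00283). The iron-sulfur subunit SDHB and the second anchor SDHD stood at -0.14 ± 0.07 and -0.17 ± 0.09 and did not pass. SDHA has near-identical pseudogenes, so its reads may have been shared with them: SDHAP1, with 177 to 510 reads per library, changed like SDHA, by 0.61 ± 0.17 on the log2 scale (edgeR adjusted p = 0.00804), and SDHAP3, with 32 to 87 reads, did not pass, at -0.21 ± 0.23. Without replicates 4 and 5 the log2 fold change of SDHA was 0.49 (adjusted p = 0.000339).

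Complex III had the largest share of lower members among the multi-subunit complexes, 4 of 8 (50%, against 24.3% of all genes). The ranking rests on few genes. With LCL521 it was 3 of 8 (37.5%), the same share as in complex V. With the replicate block it stayed 4 of 8, beside 17 of 36 complex I subunits (47.2%). CYC1, the haem-bearing cytochrome c1, had 535, 653 and 684 CPM in UT, 542, 642 and 661 in UT_LCL, 358, 388 and 444 in PGCC and 364, 383 and 405 in PGCC_LCL. No PGCC library reached the lowest parental one, and the log2 fold change was -0.68 ± 0.08 (edgeR adjusted p = 8.59e-06). The lower neighbours were UQCRB at -0.36 ± 0.07, the core protein UQCRC2 at -0.26 ± 0.06 and the other core protein UQCRC1 at -0.17 ± 0.06 (edgeR adjusted p of 0.00101, 0.00429 and 0.0463). The Rieske protein UQCRFS1 and the small subunits UQCRH, UQCRQ and UQCR10 lay between -0.08 and 0.02 and did not pass. Cytochrome c itself, CYCS, had 302, 444 and 494 CPM in UT and 249, 318 and 371 in PGCC, with overlap. It was lower in all 6 pairs and its log2 fold change was -0.40 ± 0.14 (edgeR adjusted p = 0.0307), which rose to 0.0924, 0.0522 and 0.102 without replicate 1, 2 or 3. Fitted with the replicate block, CYCS had an adjusted p of 0.00156 in edgeR. Without replicates 4 and 5 its log2 fold change was -0.43 (edgeR adjusted p = 0.000708).

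In complex IV, 5 of 13 tested members were lower (38.5%, against 24.3% of all genes). COX5B, a peripheral subunit on the matrix side, had 221, 236 and 262 CPM in UT and 163, 178 and 193 in PGCC, with a log2 fold change of -0.41 ± 0.07 (edgeR adjusted p = 0.000272). COX7C, the most abundant of the group per kilobase, had 507, 543 and 610 CPM in UT and 399, 421 and 458 in PGCC, at -0.36 ± 0.07 (edgeR adjusted p = 0.000593). Neither gene's ranges overlapped. COX5A was lower by 0.20 on the log2 scale, with an adjusted p of 0.0422. COX4I1, the ubiquitous isoform of subunit IV, stood at -0.15 ± 0.06 with an adjusted p of 0.0689 in edgeR, and 0.0449 with the replicate block. The remaining members of complex IV, COX6A1, COX6B1, COX6C, COX7A2, COX7B, COX8A and NDUFA4, lay between -0.15 and 0.08 and did not pass.

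COX7A2L, which joins complexes III and IV into supercomplexes, had 133, 151 and 206 CPM in UT and 108, 116 and 133 in PGCC and was lower by 0.46 (SE 0.11, edgeR adjusted p = 0.00426). Without replicates 4 and 5 its log2 fold change was -0.26 (adjusted p = 0.0199). COX7A2, its paralog within complex IV, stood at -0.14 ± 0.09, and the muscle isoform COX7A1 had at most 5 reads. NDUFA4, the last subunit to join complex IV, stood at -0.15 ± 0.13. Its paralog NDUFA4L2, known as a hypoxia-induced gene, was scarce, with 1.10, 2.92 and 4.52 CPM in UT, 1.95, 2.96 and 4.10 in UT_LCL, 0.345, 0.728 and 1.00 in PGCC and 0.236, 0.411 and 0.649 in PGCC_LCL. This is 19 to 78 reads per UT library and 6 to 18 per PGCC library. All PGCC libraries were below all parental libraries, and the log2 fold change of -1.99 ± 0.33 was the largest of any member (edgeR adjusted p = 0.000243). The 3′ end of NDUFA4L2 (chromosome 12, 57628686 to 57634498, - strand) overlaps that of SHMT2 (57623110 to 57628718, + strand), which had 3634 to 11147 reads per library and was itself lower, by 0.87 on the log2 scale (SE 0.15, adjusted p = 0.000323). The sources used here do not give the strand setting of the counting, so reads of NDUFA4L2 and SHMT2 cannot be told apart where the genes overlap.

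In complex V, 6 of 16 tested members were lower (37.5%, against 24.3% of all genes). The clearest contrast lay among ATP5G1, ATP5G2 and ATP5G3, which encode the same mature c subunit of the membrane ring. ATP5G2 had 155, 171 and 194 CPM in UT and 84.8, 90.8 and 111 in PGCC, without overlap, and a log2 fold change of -0.87 ± 0.09 (95% interval -1.05 to -0.68; edgeR adjusted p = 2.94e-06), the smallest p of any member. ATP5G3 had 154, 204 and 236 CPM in UT and 142, 151 and 157 in PGCC and was lower by 0.43 (SE 0.09, edgeR adjusted p = 0.00153). ATP5G1 had 158, 172 and 198 CPM in UT and 149, 169 and 174 in PGCC, a log2 fold change of -0.06 ± 0.07 (95% interval -0.22 to 0.09) that did not pass. The interval of ATP5G1 did not meet those of the other paralogs (-0.63 to -0.24 for ATP5G3); the differences between paralogs were not tested. Per kilobase, parental levels were 87.3 ± 8.14 CPM for ATP5G2, 78.6 ± 6.39 for ATP5G1 and 37.2 ± 5.43 for ATP5G3, and in PGCC they were 47.7 ± 5.39, 74.9 ± 4.15 and 27.3 ± 1.11 (SD, n = 6). Taken as mean ± SD, ATP5G2 and ATP5G1 overlapped in parental cells and did not in PGCC. Levels per kilobase depend on the listed gene length, and this contrast was not tested.

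Elsewhere in complex V, ATP5D, the delta subunit, had 192, 209 and 233 CPM in UT and 136, 151 and 178 in PGCC, with a log2 fold change of -0.45 ± 0.08 (edgeR adjusted p = 0.000434). ATP5B went from 1299, 1435 and 1522 CPM to 1116, 1213 and 1313, a fall of 0.23 (SE 0.06, edgeR adjusted p = 0.00719), while the alpha subunit ATP5A1 stood at -0.02 ± 0.07 (95% interval -0.18 to 0.14). ATP5F1 of the peripheral stalk and ATP5S, named for a coupling factor, were lower by 0.23 and 0.43. The other small subunits, among them ATP5E, ATP5H, ATP5J, ATP5L and ATP5O, did not pass.

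The same comparison in LCL521-treated cells used the other 12 libraries, none of which is in the comparison above. The comparisons are not independent, because treated and untreated libraries of the same number deviated together. The median correlation was 0.652 in parental cells and 0.532 in PGCC. Of 86 members tested, 27 were lower in PGCC_LCL than in UT_LCL (31.4%, against 23.9% of all genes) and 3 higher (3.49%, against 25.0%). The median log2 fold change was -0.18. Of 85 members tested in both, 26 were lower both times (30.6%, against 21.8% of all genes), SDHA and NDUFAF1 were higher both times, and none passed in opposite directions. All 33 members called without LCL521 had the same sign with it, and the same share over all genes was not counted. NDUFA10, NDUFB7, UQCRC1, NDUFA6 and COX5A passed without LCL521 and not with it, and NDUFA9 the reverse. With the replicate block 30 members were lower with LCL521 (26.8% of all genes were lower and 29.5% higher), NDUFB7 and NDUFA6 among them, and NDUFA9 passed without LCL521 as well; whether the effects differed is the interaction given below, in which none passed. The third higher member was NDUFV2, at 0.66 ± 0.24 (edgeR adjusted p = 0.0365), from 10 to 19 reads in UT_LCL to 15 to 33 in PGCC_LCL. For SDHA the log2 fold change with LCL521 was 0.64 ± 0.07, for CYC1 -0.67 ± 0.07, for ATP5G2 -0.92 ± 0.08, for NDUFAF4 -0.86 ± 0.21 and for NDUFA4L2 -2.74 ± 0.27 (edgeR adjusted p of 5.32e-06, 1.86e-06, 4.54e-07, 0.00393 and 1.76e-06).

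**Figure D4:**
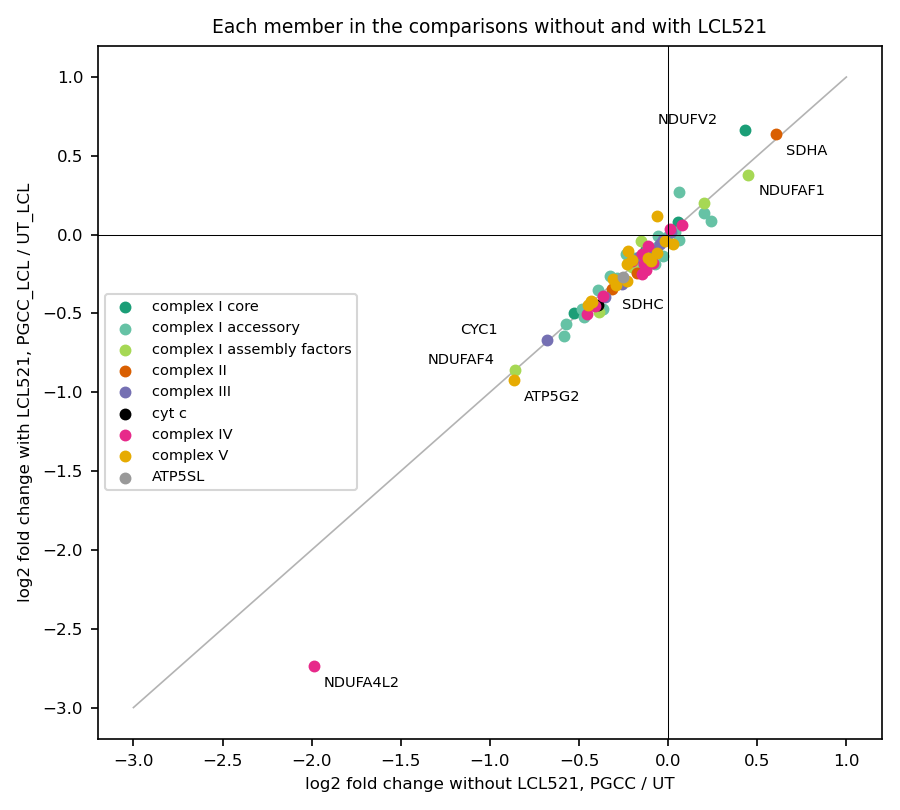
Log2 fold change of each of the 85 members tested in both comparisons, PGCC against UT on the horizontal axis and PGCC_LCL against UT_LCL on the vertical axis, coloured by complex, with the line of equal values. SDHA (0.60 and 0.64) and NDUFAF1 (0.45 and 0.38) lie high on both axes, and NDUFA4L2 (-1.99 and -2.74) lowest on both.

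Same-numbered pairs differed in how far the members fell. The median log2 ratio of PGCC to UT within same-numbered pairs was -0.21, -0.26, -0.31, -0.17 and -0.20 in replicates 1, 2, 3, 5 and 6 and -0.01 in replicate 4, where 45 of 86 members were below 0. With LCL521 it was -0.57 in replicate 3, -0.01 in replicate 6 and between -0.28 and -0.08 in the others. Without replicate 3 the median of the LCL521-treated comparison was -0.10 in place of -0.18, and that of the untreated one was -0.15. Without replicates 4 and 5, 36 members were lower in PGCC than in UT and 2 higher.

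**Figure D5:**
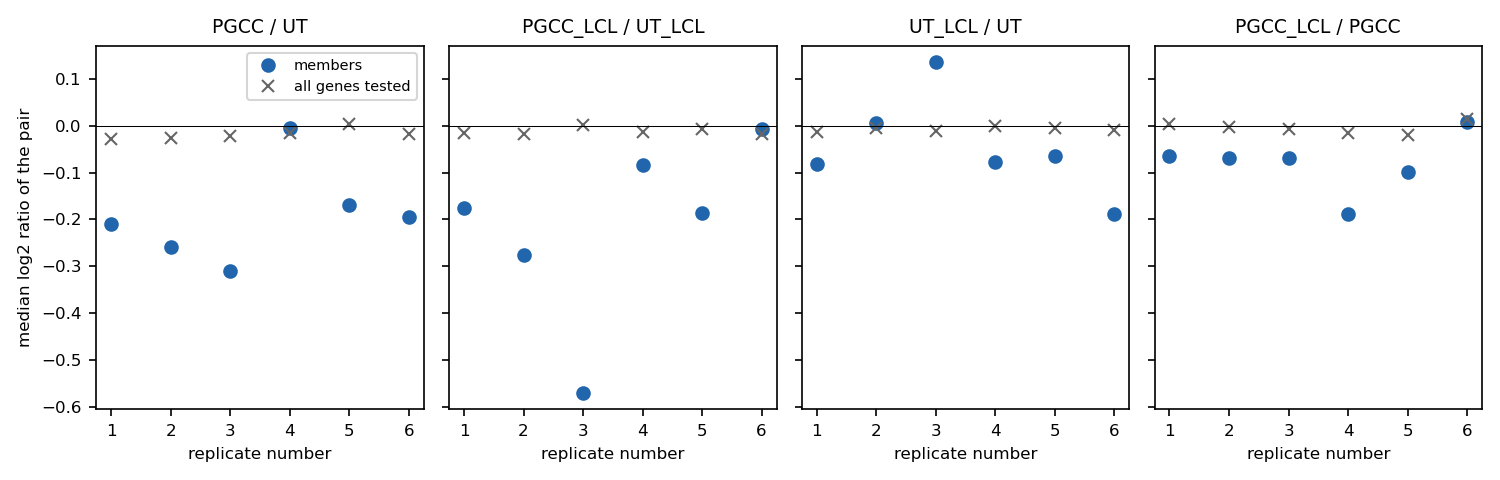
Median log2 ratio within each same-numbered pair of libraries, over the members (circles) and over all genes tested (crosses), for the 4 comparisons. The members lie below all genes in 5 of 6 pairs of PGCC against UT, at medians from -0.31 to -0.17, and at -0.01 in replicate 4.

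No member passed the test for LCL521 in parental cells. None of 86 passed in edgeR (0% of all genes passed as well), DESeq2 and limma-voom also called none, and none had an unadjusted p under 0.05. Of the log2 fold changes of UT_LCL against UT, 70 of 86 were below 0 (81.4%, against 50.1% of all genes). Their median was -0.04, or -0.08 without replicate 3 and -0.02 without replicate 6. The smallest p-values belonged to NDUFA3, NDUFA10 and NDUFS6, at -0.12 ± 0.10, -0.07 ± 0.06 and -0.12 ± 0.11, with unadjusted p of 0.237, 0.296 and 0.304 in edgeR. With the replicate block, 3 members had an unadjusted p under 0.05 (3.49%, against 12.4% of all genes) and none was called, against 0.866% of all genes.

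In PGCC none of 85 members passed either in edgeR (0.00707% of all genes did), DESeq2 or limma-voom. In edgeR, 2 had an unadjusted p under 0.05, NDUFS6 at -0.14 ± 0.05 and NDUFA4L2 at -0.71 ± 0.32 on the log2 scale. Of the log2 fold changes of PGCC_LCL against PGCC, 83 of 85 were below 0 (97.6%, against 51.3% of all genes), with a median of -0.08. With the replicate block, 4 members were lower (COX6C, CYCS, COX7C and NDUFS5, at edgeR adjusted p of 0.0295, 0.0312, 0.0364 and 0.0486) and none was higher, where 0.572% of all genes were lower and 1.08% higher. With the block, 32 of the 85 had an unadjusted p under 0.05 (37.6%, against 14.3% of all genes). COX6C, a small subunit of complex IV, had 227, 244 and 302 CPM in PGCC and 196, 230 and 264 in PGCC_LCL, and all 4 genes were lower with LCL521 in all 6 pairs although the ranges overlapped. The median ratio within pairs was -0.19 in replicate 4, 0.01 in replicate 6 and between -0.10 and -0.06 in the others. Without replicates 4 and 5 the median was -0.05, and the block called none.

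The interaction of LCL521 with population, tested on all 24 libraries, passed for none of 87 members (0% of all genes passed) in edgeR, DESeq2 or limma-voom, and none had an unadjusted p under 0.05. The smallest p-values were those of NDUFA4L2 (-0.77 ± 0.44), NDUFAF3 (-0.12 ± 0.13) and NDUFA2 (-0.17 ± 0.18), at 0.0897, 0.339 and 0.356 unadjusted in edgeR. The intervals of such differences were wide beside the effects, -0.24 to 0.26 for SDHA and -0.22 to 0.20 for CYC1.

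Other genes of the pathway were read from lists chosen by role. Of 38 tested assembly factors outside the NDUFAF names, 14 were lower in PGCC than in UT (36.8%, against 24.3% of all genes) and 4 higher (10.5%, against 23.1%). Among those that passed, COX10, which acts in making the haem A of complex IV, was lowest at -0.70 ± 0.08 and COX18, a membrane insertase for complex IV, stood at -0.54 ± 0.12. CMC2 and TIMMDC1, which act in the assembly of complexes IV and I, were higher by 0.52 ± 0.10 and 0.51 ± 0.10. The 13 subunits encoded by mitochondrial DNA had 0 called in edgeR, with 2 at an unadjusted p under 0.05. All 13 of their log2 fold changes were above 0, with a median of 0.40, and their libraries spread widely (MT-ND1 1863 ± 1040 CPM in UT and 3232 ± 1352 in PGCC). With the replicate block 7 of the 13 were higher, where 27.9% of all genes were. In LCL521-treated cells 4 were higher (25.0% of all genes were), or 12 with the block (29.5% of all genes).

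Of 13 tricarboxylic acid cycle enzymes, 6 were lower in PGCC (46.2%, against 24.3% of all genes) and 2 higher (15.4%, against 23.1%). IDH3A and SUCLG2 fell by 0.57 and 0.53, and SUCLA2, which encodes the alternative beta subunit of succinyl-CoA ligase to SUCLG2, rose by 0.38 ± 0.09, as did OGDH by 0.34 ± 0.11. Of 16 regulators of these genes and of mitochondrial DNA, 9 were lower (56.2%, against 24.3% of all genes) and 1 higher (6.25%, against 23.1%). PPARGC1B, a coactivator of mitochondrial genes, went from 62.5 ± 32.2 to 26.0 ± 4.91 CPM (SD, n = 6), which is -1.25 ± 0.31 on the log2 scale. MYC was at -0.89 ± 0.15. ESRRA, TFB2M, TFAM and GABPA were lower as well, at -0.70, -0.64, -0.45 and -0.27, and passed as lower with LCL521 too. NRF1 (-0.22 ± 0.12, edgeR adjusted p = 0.0485 with the replicate block) and YY1 (-0.07 ± 0.06) did not pass without the block. With LCL521, NRF1 was not lower in PGCC, at 0.004 ± 0.12 (edgeR adjusted p = 0.982). POLG, the mitochondrial DNA polymerase, was higher by 0.33 ± 0.08.

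Among tested members with a promoter window, the NRF1 core was found in 5 of the 21 that were lower in PGCC (23.8%) and 7 of the 46 not called (15.2%), the ETS motif in 3 (14.3%) and 17 (37.0%), and the YY1 core in 9 (42.9%) and 8 (17.4%). The 2 higher members had none of them. The members were also short, with a median length of 1583 bases over those tested against 3231 over all genes tested; with a correction for length, 33 were lower and 2 higher.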

How the data were processed

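The authors deposited raw read counts per gene for 24 libraries. The submitters' processing notes name CASAVA, STAR, HTSeq, DESeq2 and hg19, and the counts carry no normalization. Here genes with low counts were removed with filterByExpr (minimum count 10, minimum total 15), libraries were scaled by TMM, and the 12 libraries of each comparison were fitted with edgeR 4.0.16 in R 4.3.3 (quasi-likelihood test, Benjamini-Hochberg adjustment over all genes, threshold 0.05); the interaction used all 24. SE is the absolute log2 fold change over the square root of F. DESeq2 1.42.0 and limma 3.58.1 were alternatives. Total counts were 14835246 to 19906601 per library.

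Replicate numbers from the labels were taken to mark parallel harvests, which the sample titles do not state. Same-numbered libraries deviated together (median correlation 0.344 between UT and PGCC, 0.272 with LCL521, 0.652 and 0.532 between treated and untreated cells, all 6 pairs above 0.1), so a block on the number was also fitted. Members and lists were chosen with earlier results of these data known. Named genes were up to 3 rises and 3 falls per complex with the same sign in all 6 pairs, isoform families, the most abundant member per complex, the 3 smallest p-values for LCL521 and members removed by the filter; genes named beyond these were chosen after their values were seen. Whether counting used strand is not given in the sources used here. The fit was tested on simulated data. Promoter matching and figures used Python 3.11.15 and matplotlib 3.10.9. Values of 1 member and 1 marker are not reported here.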

Additional observations from a re-analysis of the deposited data

Results flagged for a closer look

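Dixon's test at the 95% level was applied to 80 groups of 6 libraries, of which chance alone flags about 1 in 20, and it marked 3. CYC1 in replicate 4 of UT, at 534.7 CPM, was far below the other 5 parental libraries, which lay between 645 and 684 CPM. UQCRB in replicate 2 of UT, at 203.4 CPM, was far above the others of its condition. ATP5G2 in replicate 5 of PGCC_LCL, at 97.3 CPM, was far above the other 5, which lay between 82.6 and 87.4 CPM.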

How the results depend on the processing

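The count of 31 members lower in PGCC than in UT became 32 under DESeq2, 31 under limma-voom, 29 with RLE size factors, 31 with upper quartile factors, 26 with no filter, 25 with at least 10 counts in every library, 34 with all 24 libraries fitted, 39 with the replicate block, 33 with a length correction and 43 with both. With library totals it became 20, with 4 higher, and with replicates 4 and 5 left out and the block it became 47. Leaving out each replicate in turn gave 23 to 34 lower members, and 19 to 27 with LCL521. For LCL521 in PGCC the replicate block called 4 members, and 3 with the length correction as well. The replicate block also moved complex I accessory subunits lower in PGCC from 9 to 14 and mitochondrially encoded subunits from 0 to 7 higher, or from 4 to 12 with LCL521. In PGCC against UT it changed the call of 8 members, each of which then passed as lower. The cause of these changes was not tested.

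The values that changed sign passed no test, but were not all close to 0: COX8A reached -0.16 with the length correction. With library totals UQCRH was at 0.048 and ATP5G1 at 0.0325 on the log2 scale. COX6B1 was at -0.044 with the length correction and -0.038 with the replicate block as well. COX8A was at -0.017 with no filter, -0.16 with the length correction, -0.088 with the length correction and block, -0.11 without replicates 4 and 5 and -0.055 with the block as well. Leaving out 1 replicate gave -0.11 to 0.19 for COX8A and -0.22 to 0.078 for COX6A1. CYCS and NDUFS5 did not pass with library totals (edgeR adjusted p of 0.0861 and 0.149), nor NDUFS5 with at least 10 counts in every library (0.0505). Counts of 19 to 78 reads limit NDUFA4L2, and those of NDUFA7, NDUFB8, NDUFA13, NDUFV2 and UQCR11 limit what can be said of these genes.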
